A study of Homo sapiens with 18 samples.

Results

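A set of 8 chemokine ligands was selected by gene symbol, namely CCL22, CCL17, CCL3, CCL4, CCL5, CXCL9, CXCL10 and CXCL16, and 5 of these were measured among the 17155 genes of the expression table. These were CCL22 (ENSG00000102962) and CCL17 (ENSG00000102970), both on chromosome 16, CXCL9 (ENSG00000138755) and CXCL10 (ENSG00000169245), both on chromosome 4, and CXCL16 (ENSG00000161921) on chromosome 17. CCL3, CCL4 and CCL5 were not analysed here. CCL22 was picked because of its low level in the cRel-labelled and p50 knockout libraries, so both of those differences are given below as a description without a test.

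Polyadenylated RNA was sequenced in 18 libraries of GM12878, an established human lymphoblastoid line of B cells transformed by Epstein-Barr virus. There were 6 groups of 3 libraries. The control carried a non-targeting guide RNA, and the 5 other groups carried a stable CRISPR knockout of one NF-kB subunit each, which was p50 (gene NFKB1), p52 (NFKB2), RelA (RELA), RelB (RELB) or cRel (REL). All groups, the control included, are of the same line with the genotype label Wildtype LMP1, received guide RNA by lentivirus and were kept for 5 days in puromycin, at a concentration of 3 µg/ml. Per the labels' protocols, loss of each subunit was checked by immunoblot. The protocols do not say whether a group was 1 clone or a selected pool, and the labels call the replicates biological without saying whether they came from separate transductions, so a p-value here reflects the spread among these libraries and nothing wider.

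Chemokines are small secreted proteins that direct the migration of leukocytes through G-protein-coupled receptors. CCL22 and CCL17 both bind CCR4 and attract regulatory and type 2 helper T cells, and B cells transformed by Epstein-Barr virus are known to secrete both. CXCL9 and CXCL10 are interferon-induced ligands of CXCR3, the receptor of activated T and NK cells, while CXCL16 is a membrane-bound ligand of CXCR6. NF-kB is a family of dimeric transcription factors that the viral protein LMP1 keeps active in such lines, and several chemokine genes are textbook targets of it.

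The 250 bases before the transcription start of 3 measured ligands are printed because NF-kB binding motifs of this kind are usually looked for there. They are the RefSeq promoter windows on GRCh38.p14, written 5′ to 3′ on the strand of the gene, and capitals mark every match to GGGNNNNNCC on either strand, overlapping matches merged. CCL17 and CXCL16 are named only.
CCL22 promoter, chr16:57358533-57358782, plus strand: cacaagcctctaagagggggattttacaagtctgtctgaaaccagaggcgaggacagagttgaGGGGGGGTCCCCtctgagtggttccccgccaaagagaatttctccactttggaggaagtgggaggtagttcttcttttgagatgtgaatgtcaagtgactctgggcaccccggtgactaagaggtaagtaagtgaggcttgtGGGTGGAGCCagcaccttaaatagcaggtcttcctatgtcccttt
CXCL9 promoter, chr4:76007510-76007759, minus strand: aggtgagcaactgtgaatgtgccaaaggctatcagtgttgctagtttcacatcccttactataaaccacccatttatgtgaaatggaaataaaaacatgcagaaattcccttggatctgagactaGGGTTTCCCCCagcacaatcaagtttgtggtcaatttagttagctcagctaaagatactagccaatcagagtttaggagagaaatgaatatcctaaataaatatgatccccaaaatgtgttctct
CXCL10 promoter, chr4:76023498-76023747, minus strand: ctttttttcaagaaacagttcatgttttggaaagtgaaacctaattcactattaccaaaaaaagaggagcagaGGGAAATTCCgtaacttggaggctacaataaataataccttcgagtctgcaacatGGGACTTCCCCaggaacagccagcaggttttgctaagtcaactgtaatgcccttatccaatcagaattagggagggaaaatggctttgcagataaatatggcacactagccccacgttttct

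GGGNNNNNCC is a loose motif that 54.4% of the 35116 RefSeq promoter windows of this length hold on at least 1 strand, so its presence in all 3 windows is a description. The stricter NF-kB consensus is this motif with A or G directly after GGG and a pair of bases that are each C or T directly before CC. Searched on both strands, it is in 9.96% of the windows. That consensus was found in CCL22, in overlapping matches between 186 and 176 bases before the start, and in CXCL10, at 177 to 168 and at 122 to 113 bases before it. No match to the consensus was found in the CXCL9 window. The core of the interferon-stimulated response element, GAAANNGAAA, is in 3.02% of windows, among them those of CXCL9 (171 to 162 bases before the start) and CXCL10 (221 to 212 bases), and not that of CCL22. The interferon-gamma-activated site TTCNNNGAA, found in 6.57% of windows, is in none of the 3. These matches are letters in a window and were not tested for binding.

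Libraries held 15.2 to 37.5 M reads (median 22.1 M), and the deposited values are read counts scaled to a common depth, called normalised read counts below, in which 1 read was worth 0.646 to 1.46 units. NFKB1 fell by 0.59, NFKB2 by 0.44 and RELA by 0.69 on the log2 scale in their own knockouts. In contrast, RELB was 0.31 higher in the libraries labelled RelB, and REL differed by -0.02 (SE 0.19) in those labelled cRel. REL stood at 1554, 1717 and 856 in controls 1, 2 and 3, and at 1298, 1315 and 1282 in the libraries labelled cRel. The latter were all below controls 1 and 2 and above control 3, so the size of this difference rests on control 3. Thus mRNA levels did not check these 2 labels, and the groups are called RelB-labelled and cRel-labelled throughout. Deviations from the group mean were correlated by rank with transcript length over 12363 genes. A set of 3 libraries, namely control 3, p52 library 3 and RelA library 2, had the most negative correlations (-0.45, -0.38 and -0.31). Leaving these libraries out was tried for the 4 tested ligands only, and each of their calls that changed is named. Other genes named below were not checked in this way. Control 2 deviated in the other direction, at 0.36, and was not in this set.

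CCL22 was the ligand with the widest range among the groups. In the control libraries it stood at 2831, 2353 and 2494 normalised read counts (mean 2559 ± 245, SD, n = 3). The RelB-labelled libraries held 7110, 7274 and 7379 (7254 ± 136), every one of them far above every control library. At the other end were the cRel-labelled libraries with 450.1, 567 and 464 (494 ± 64.0) and the p50 knockout with 1367, 1403 and 1295 (1355 ± 55.2). The remaining groups lay between p50 and the control, with 1904, 1801 and 1812 in the RelA knockout (1839 ± 56.7) and 2117, 2111 and 2134 in the p52 knockout (2120 ± 12.1). No knockout library overlapped the control range, and the group means spanned a ratio of 14.7 from the RelB-labelled to the cRel-labelled libraries. The cRel-labelled and p50 parts of this are values that picked the gene, as are the control values they were set against. The share of all genes without such overlap was not counted.

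In the contrasts that picked the gene, CCL22 differed from the control by -2.37 on the log2 scale in the cRel-labelled libraries (SE 0.08), the second-lowest of 12381 genes, and by -0.91 in the p50 knockout (SE 0.08), which was place 99 from the lowest. The other 3 knockouts were tested with limma across all 12381 genes with a mean of at least 10. Of these genes, 67.8% were called in the RelB-labelled, 5.55% in the RelA and 50.8% in the p52 comparison. These comparisons use the same control libraries as the contrasts that picked the gene, so for CCL22 they are not independent of that choice. CCL22 rose 2.84-fold in the RelB-labelled libraries (log2 difference 1.51, SE 0.08, adjusted p = 2.6e-13), place 409 from the highest of the 12381. It fell in the RelA knockout by 0.47 on the log2 scale (SE 0.08, adjusted p = 0.00036). In the p52 knockout it fell by 0.27 (adjusted p = 0.0054), a call that was lost with quantile normalisation (adjusted p = 0.066).

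Ordered by level, CCL22 ran from the RelB-labelled libraries through control, p52, RelA and p50 to the cRel-labelled ones, and no 2 neighbours in this order overlapped. The steps from RelA to p50 and from p50 to the cRel-labelled libraries rest on values that picked the gene. Between knockouts tested directly, the RelB-labelled libraries exceeded the RelA knockout by 1.98 (adjusted p = 5.5e-15, with 67.2% of all tested genes called in that contrast) and the p52 knockout by 1.77 (adjusted p = 1.2e-13, with 45.4% called). RelA lay below p52 by a log2 difference of -0.21 (adjusted p = 0.027, with 52.5% of all genes called). That last difference was not called without p52 library 2 (adjusted p = 0.055), RelA library 2 (0.075) or RelA library 3 (0.068), nor without the 3 libraries that deviated with transcript length (0.092).

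The libraries carried the markers of B cells, with CD79A, a subunit of the B-cell receptor, between 3660 and 6202 normalised read counts in each. Some defining markers of other cell types were near 0 in all 18 libraries, with CD3D at most 1.63, CD14 at most 3.16, CLEC4C at most 2.96 and FCER1A at most 4.24. Others on the same lists were well expressed, with NKG7 at 290.1 to 702, CSF1R at 306 to 758 and ITGAM at 86.2 to 267. NKG7 rose by 0.73 (adjusted p = 1.4e-06), CSF1R by 0.94 (adjusted p = 1.1e-08) and ITGAM by 0.68 (adjusted p = 3.2e-05) in the RelB-labelled libraries. In the cRel-labelled ones NKG7 fell by 0.44 (adjusted p = 0.0074) and ITGAM rose by 1.04 (adjusted p = 4.4e-06). CCL22 is also a product of dendritic cells, and the summed level of 6 measured dendritic markers was 2161 to 2284 in the control, 2709 to 3070 in the cRel-labelled and 5934 to 6363 in the RelB-labelled libraries, most of it LAMP3 (1299 to 5643 per library). LAMP3, a lysosomal protein of mature dendritic cells, rose in the last by 1.90 (adjusted p = 6.7e-13). It also rose in the p52 (1.12, adjusted p = 1.4e-08), cRel-labelled (0.58, adjusted p = 0.00065) and p50 (0.39, adjusted p = 0.0042) groups, all with less CCL22 than the control. Of the 2 other tested markers in the RelB-labelled libraries, ITGAX rose by 0.87 (adjusted p = 1.9e-05) and BATF3 fell by 0.54 (adjusted p = 0.00017). The summed level of 10 T and NK cell markers was 444 to 595 in the control, 359 to 384 in the cRel-labelled and 749 to 828 in the RelB-labelled libraries. Most of that sum was NKG7. Of 5 tested markers on that list, 2 were higher and 1 lower in the RelB-labelled libraries, where 67.8% of all genes were called. The lower was GNLY (-1.75, adjusted p = 9.1e-05). For 10 B-cell markers the sums were 63647.1 to 67350.5 in the control, 68863.1 to 71604.1 in the cRel-labelled and 77575.5 to 82049.8 in the RelB-labelled libraries. The sum of 7 monocyte and macrophage markers, mostly CSF1R and ITGAM, was 516 to 540 in the control, 565 to 656 in the cRel-labelled and 908 to 983 in the RelB-labelled libraries. The part of these markers in the CCL22 differences was not tested. In such bulk RNA, fewer cells expressing a chemokine and less of its RNA per cell cannot be told apart.

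CCL17, the second CCR4 ligand and a neighbour of CCL22 on chromosome 16, was measured from only 4 to 65 reads per library. The p52 knockout stood apart, with 32.2, 39.3 and 46.8 normalised read counts (39.4 ± 7.29, SD, n = 3) against 7.72, 10.8 and 14.9 in the control (11.1 ± 3.58). All 3 p52 libraries were above every other library of the series. The cRel-labelled libraries held 8.33, 7.32 and 14.4 and the RelB-labelled libraries 5.83, 11.5 and 7.14, both overlapping the control range. Those of p50 held 12.7, 21.1 and 15.5, while the RelA knockout, at 16.8, 15.7 and 19.6, was above all 3 controls.

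In the p52 knockout CCL17 rose 3.39-fold (log2 difference 1.76, SE 0.31, adjusted p = 7.3e-05). None of its other 4 differences from the control was called, with adjusted p of 0.82 for cRel-labelled, 0.19 for p50, 0.26 for RelA and 0.25 for RelB-labelled libraries. The p52 knockout also exceeded the RelA knockout, next in order, by 1.13 (adjusted p = 0.0044, and 0.059 without the 3 libraries that deviated with transcript length). Among the lower 5 groups each neighbouring pair overlapped and none was called. Of all genes, 36.7% were called between p50 and control and 6.09% between control and cRel-labelled libraries. The shares for the other pairs were not counted. The 2 CCR4 ligands thus differed from the control in opposite directions in the p52 knockout, CCL22 by -0.27 and CCL17 by 1.76. In the RelB-labelled libraries CCL22 stood 1.51 above the control and CCL17 at -0.41 without a call.

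**Figure D1:**
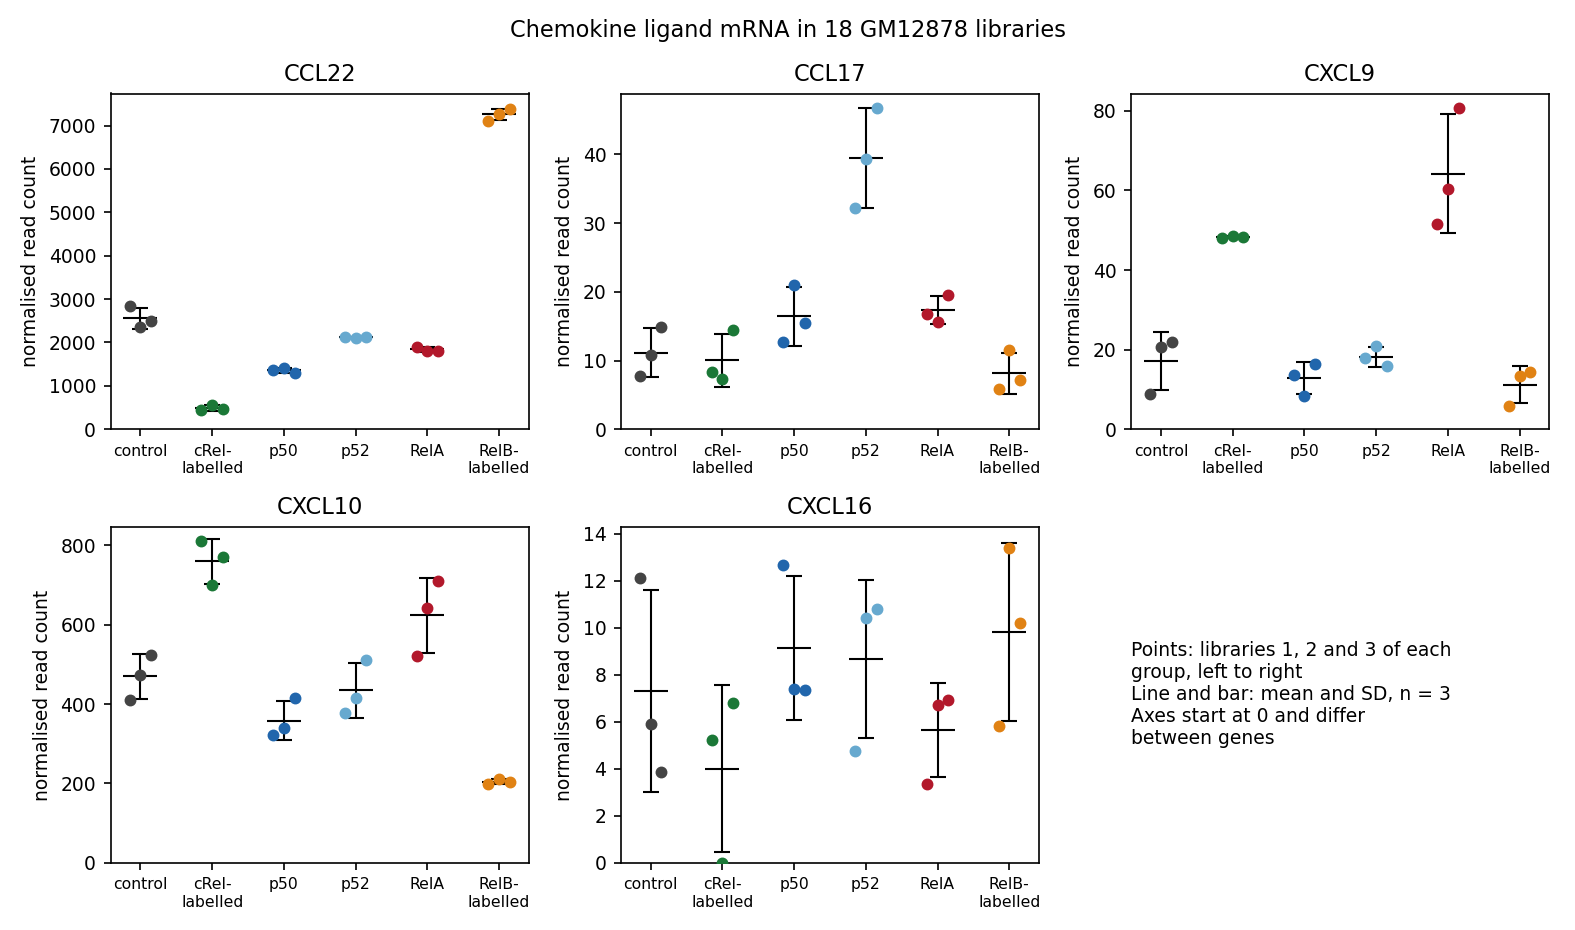
Normalised read count (vertical axis, starting at 0, scale differing between panels) of the 5 measured ligands in control and knockout libraries (horizontal axis); points are libraries, the line and bar are mean and SD of 3 libraries. CCL22 ranges from 450.1 in a cRel-labelled to 7379 in a RelB-labelled library, CCL17 is highest in the p52 knockout, CXCL9 in the RelA knockout and CXCL10 in the cRel-labelled libraries.

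CXCL10, per kilobase the more abundant CXCR3 ligand, was high where CCL22 was lowest and low where CCL22 was highest. Control libraries held 411, 474 and 524 normalised read counts (470 ± 56.5, SD, n = 3). The cRel-labelled libraries were all higher, with 809, 699 and 769 (759 ± 55.9), and the RelB-labelled libraries were all lower, with 198, 211 and 203 (204 ± 6.58). RelA knockout libraries held 522, 641 and 709 (624 ± 94.9), those of p52 377, 415 and 510 (434 ± 68.7) and those of p50 321, 339 and 415 (358 ± 49.8). These 3 groups each overlapped the control range. In GENCODE 29 the gene lies inside ART3, a gene on the opposite strand that was itself at 0 to 1.97 normalised read counts in these libraries.

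Relative to the control, cells labelled cRel had 1.62-fold more CXCL10 (log2 difference 0.70, SE 0.12, adjusted p = 0.00071 by limma). It fell in the RelB-labelled libraries by 1.19 on the log2 scale (SE 0.12, adjusted p = 1.6e-08), a 2.28-fold difference. In the p50 knockout it fell by 0.39 (adjusted p = 0.015), which was not called without control 3 (0.079), p50 library 1 (0.071) or p50 library 2 (0.059). The difference of 0.40 in the RelA knockout missed the threshold (adjusted p = 0.055) but passed it with edgeR (0.043) and DESeq2 (0.027) on the recovered reads, with TMM scaling (0.047) and with a replicate block (0.012). It also passed without control 3 (0.038), without RelA library 1 (0.02) or without the 3 libraries that deviated with transcript length (0.049). The p50 and RelA differences were of nearly the same size with the same SE (0.12). Adjustment was made within each contrast, and 36.7% of all genes were called in p50 against 5.55% in RelA. A call in one and not in the other therefore does not mark a weaker difference in RelA. No call was made in the p52 knockout (log2 difference -0.12, adjusted p = 0.44).

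In the order of CXCL10 levels, from cRel-labelled through RelA, control, p52 and p50 to RelB-labelled libraries, only the last step was called, with p50 above RelB-labelled by 0.80 (adjusted p = 9.9e-06, with 53.1% of all genes called) and no overlap. The cRel-labelled libraries and the RelA knockout overlapped and the difference of 0.29 was not called (adjusted p = 0.15, with 11.0% of all genes called), although the pair passed in a fit of those 2 groups alone (0.026). The step from p52 to p50 (0.27, adjusted p = 0.12, with 22.2% of all genes called) passed with a replicate block (0.041), without p50 library 3 (0.044) and without p52 library 1 (0.048).

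CXCL9, the other CXCR3 ligand, lies beside CXCL10 on chromosome 4 and was measured from 4 to 70 reads per library. Its highest values were in the RelA knockout, with 51.5, 60.4 and 80.6 normalised read counts (64.2 ± 14.9, SD, n = 3), and in the cRel-labelled libraries, with 47.9, 48.5 and 48.3 (48.2 ± 0.289). The control held 8.82, 20.7 and 21.97 (17.2 ± 7.25). All 6 libraries of the RelA and cRel-labelled groups exceeded all others. Those of p50 (13.6, 8.43 and 16.3), p52 (17.9, 20.8 and 15.8) and RelB-labelled libraries (5.83, 13.4 and 14.3) overlapped the control.

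By limma, CXCL9 rose 3.77-fold in the RelA knockout (log2 difference 1.92, SE 0.33, adjusted p = 0.00073), the third-highest difference of 12381 genes. In the cRel-labelled group it rose 2.90-fold (1.54, SE 0.33, adjusted p = 0.0048), place 16 from the highest. Those 2 groups did not overlap each other, but their difference of 0.38 was not called (adjusted p = 0.59), whereas the cRel-labelled libraries exceeded the p52 knockout, next in order, by 1.37 (adjusted p = 0.0018, with 45.9% of all genes called). Differences of p50 (-0.35, adjusted p = 0.44), p52 (0.17, 0.69) and RelB-labelled libraries (-0.57, 0.13) from the control were not called. The last of these passed with quantile normalisation (log2 difference -0.90, adjusted p = 0.018) and without control 1 (-0.96, 0.012), control 1 being the lowest control library.

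**Figure D2:**
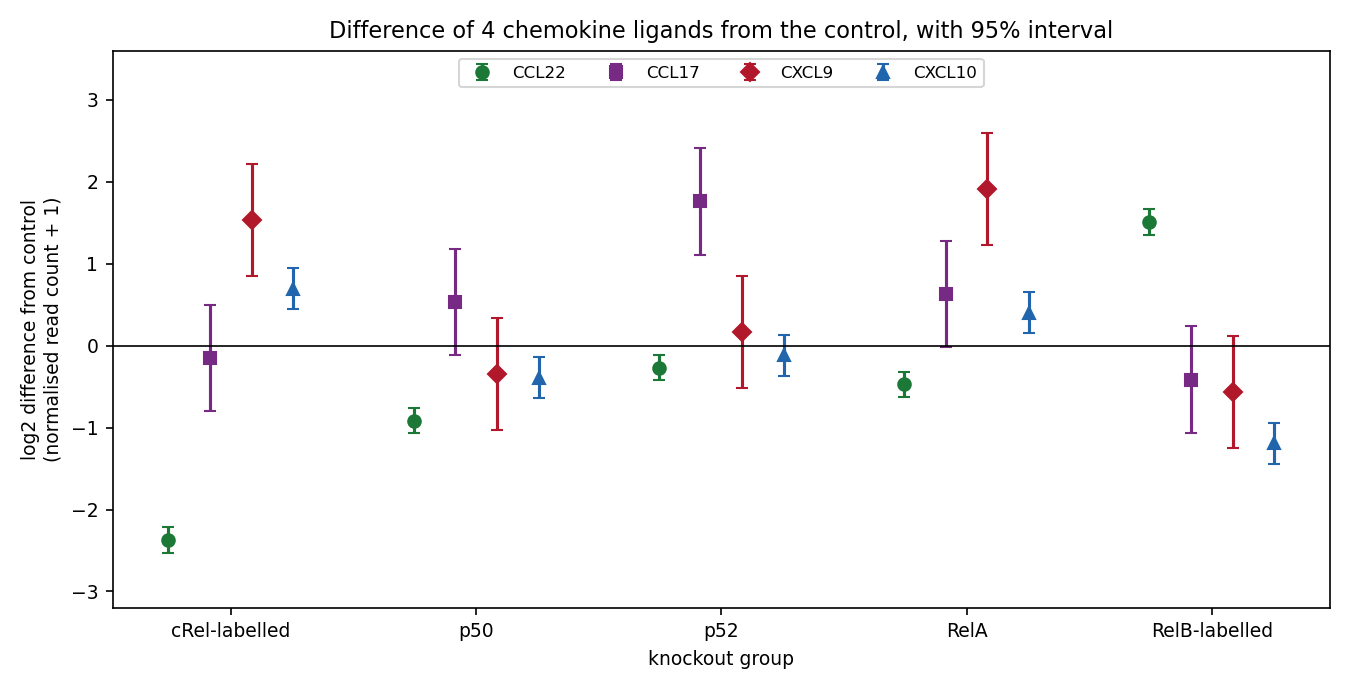
Log2 difference from the control (vertical axis, log2 of normalised read count + 1) of 4 ligands in each knockout group (horizontal axis), with 95% intervals from the fit of 18 libraries. CCL22 is at -2.37 in the cRel-labelled and 1.51 in the RelB-labelled libraries while CXCL10 is at 0.70 and -1.19, and the CCL22 values for cRel-labelled and p50 are a description because they picked the gene.

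CXCL16, the CXCR6 ligand, had 0 to 15 reads per library and a mean of 7.43 normalised read counts, under the minimum of 10 for testing. Its last 85 bases overlap MED11 on the opposite strand, which stood at 91.9 to 144 in these libraries. It stood at 12.1, 5.91 and 3.88 in the control and 13.4, 5.83 and 10.2 in the RelB-labelled libraries, the latter holding the highest value of the series. Every group overlapped the control. One cRel-labelled library had 0 of its 24.6 M reads on the gene, which allows up to 3 reads, or 2.75 normalised read counts. With no minimum applied, none of its 5 differences from the control was called (adjusted p of 0.35 to 0.88).

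Counted together, and leaving out the 2 CCL22 differences that picked the gene, 2 of 3 tested ligands were called in the cRel-labelled libraries, both higher (CXCL9 and CXCL10), where 6.09% of all tested genes were called. In the p50 knockout 1 of 3 was called (CXCL10, lower) against 36.7% of all genes, a share near the background. In the p52 knockout 2 of 4 were called (CCL17 higher, CCL22 lower) against 50.8%, equally near it. The RelA knockout had 2 of 4 called (CXCL9 higher, CCL22 lower) against 5.55% of all genes. In the RelB-labelled libraries 2 of 4 were called (CCL22 higher, CXCL10 lower) against 67.8%, below the background share. All 5 comparisons share the same 3 control libraries, which also stood in the 2 contrasts that picked CCL22. Over the 4 ligands, 18 pairs of groups next to each other in level were tested directly and 6 were called. In the contrasts of the 6 called pairs, 45.9% to 67.8% of all tested genes were called. Among the uncalled pairs the counted shares ran from 5.55% (RelA against control) to 53.1% (RelB-labelled against p50). The shares for RelA against p50 and for RelB-labelled against cRel-labelled libraries were not counted. Per kilobase of exon, control levels were 874 for CCL22, 400 for CXCL10, 17.97 for CCL17, 6.27 for CXCL9 and 2.62 for CXCL16, so CCL22 and CXCL10 were by far the most abundant of the 5 on this scale.

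**Figure D3:**
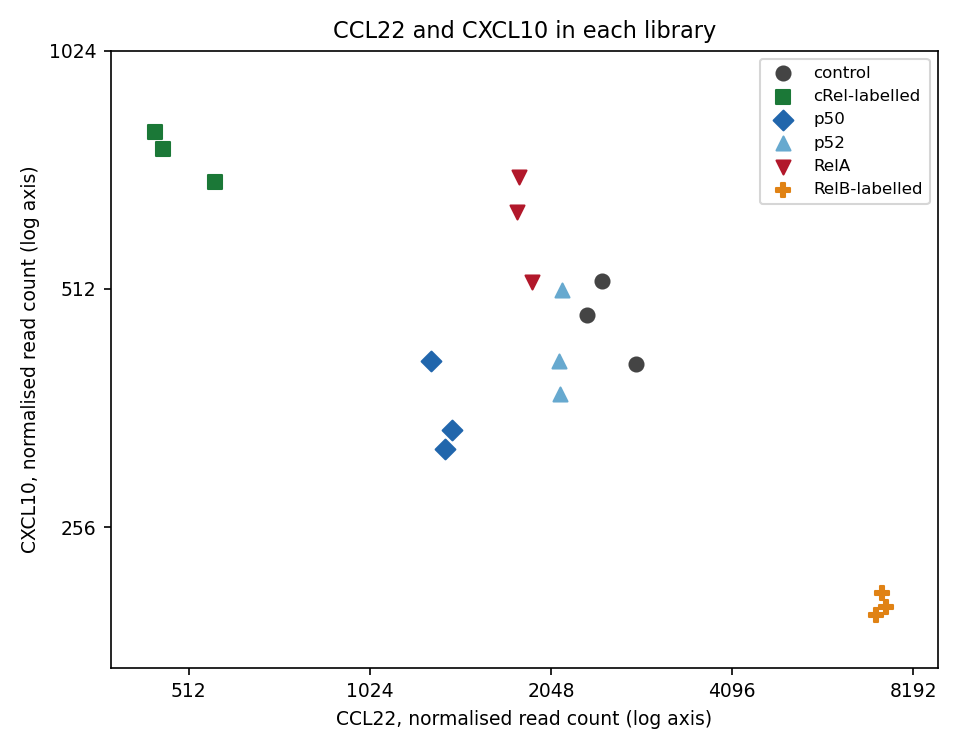
CXCL10 (vertical log axis) against CCL22 (horizontal log axis), both in normalised read counts, with 1 point per library and a symbol per group. RelB-labelled libraries lie at the lower right with CCL22 of at least 7110 and CXCL10 of at most 211, and cRel-labelled libraries at the upper left with CCL22 of at most 567 and CXCL10 of at least 699.

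Receptors of these ligands were also present in the cells' RNA. CXCR3, which binds CXCL9 and CXCL10, stood at 530.4, 638 and 670.2 normalised read counts in the control (613 ± 73.2, SD, n = 3) and at 72.9, 71.7 and 67.3 in the RelB-labelled libraries (70.7 ± 2.93). It fell there by 3.09 on the log2 scale (adjusted p = 1.8e-13), by 2.04 in the p50 knockout (mean 150 ± 35.5, adjusted p = 3.2e-09) and by 1.44 in the p52 knockout (226 ± 36.0, adjusted p = 9.9e-08). Where CXCL9 was high, CXCR3 was not called, at 542 ± 82.7 in the cRel-labelled libraries and 746 ± 111 in the RelA knockout. In the RelB-labelled libraries, then, both CXCR3 and its ligand CXCL10 were lower than in the control.

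CCR4, the receptor of CCL22 and CCL17, was low everywhere, from 7.20 to 39.1 normalised read counts per library. Its mean was 22.4 ± 2.66 in the control, 35.3 ± 4.81 in the RelA knockout and between 12.7 and 14.4 in the other 4 groups. Only the RelB-labelled difference was called (-0.83, adjusted p = 0.032). CCR1, a receptor of CCL3 and CCL5, had a mean of 20.6 ± 4.05 in the control but 0 to 1 reads per library in the RelB-labelled group, and fell in the p50 and p52 knockouts as well (means 5.23 ± 3.04 and 2.85 ± 1.98, adjusted p = 0.0019 and 4.4e-05). CXCR6, the receptor of CXCL16, had 1 to 17 reads per library, with its highest mean in the RelB-labelled group (12.4 ± 5.03).

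Of 26 listed chemokine receptor symbols, 10 reached the minimum for testing. In the cRel-labelled libraries 3 were called, all higher, against 6.09% of all genes. The p50 knockout had 3 higher and 4 lower (36.7% of all genes called), p52 5 higher and 3 lower (50.8%), and RelA 1 of each (5.55%). All 10 were called in the RelB-labelled libraries, 4 higher and 6 lower, against 67.8% of all genes. In the RelB-labelled libraries ACKR3, a scavenger of CXCL12, rose 5.64-fold and CCR10, a receptor of skin-homing lymphocytes, fell by 1.43. CCR8, carried by some of the T cells that CCL22 attracts, was 0.46 higher in the cRel-labelled libraries (adjusted p = 0.0068) and lower, by a factor of 2.21, in the RelB-labelled ones (adjusted p = 1.9e-09). It was also higher in the p50 (0.48, adjusted p = 0.00092) and p52 knockouts (0.35, adjusted p = 0.0061). In the RelA knockout, where CCL22 was below the control, CCR8 was lower too (-0.51, adjusted p = 0.003).

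Of 41 other chemokine ligands listed, 7 could be tested. CXCL12, the ligand of CXCR4, stood at 346.3, 345.0 and 332.2 normalised read counts in the control (341 ± 7.78, SD, n = 3) and at 778.6, 832.8 and 879.5 in the RelB-labelled libraries (830 ± 50.5). No RelB-labelled library overlapped the control, and the rise was 2.43-fold (log2 difference 1.28, adjusted p = 2e-10). It rose in the p52 knockout (797 ± 30.0, 1.22, adjusted p = 3.4e-09) and the p50 knockout (573 ± 3.00, 0.75, adjusted p = 7.2e-06), the latter being a group where CCL22 was low. In the RelA knockout CXCL12 fell by 0.98 (174 ± 30.5, adjusted p = 8.1e-07).

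CCL20, the ligand of CCR6 and a well-known NF-kB target, was, like CCL22, highest in the RelB-labelled libraries. It stood at 93.7, 87.7 and 117 normalised read counts in the control and at 303, 373 and 365 in the RelB-labelled libraries, without overlap (log2 difference 1.80, adjusted p = 4.9e-10). It also rose in the p52 knockout (213 ± 34.5, 1.09, adjusted p = 2.6e-06) and the RelA knockout (142 ± 12.9, 0.51, adjusted p = 0.041), both of which had lower CCL22 than the control. In the cRel-labelled libraries, where CCL22 was lowest, CCL20 was at 108 ± 18.4 and not called (adjusted p = 0.71).

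XCL1, a chemokine of T and NK cells that binds XCR1, was at 100.3, 80.8 and 120 in the control and at 213, 202 and 207 in the RelB-labelled libraries. The rise there was 2.08-fold (log2 difference 1.06, adjusted p = 7.6e-05), and in the RelA knockout XCL1 fell by 1.05 (47.7 ± 8.49, adjusted p = 0.0019). Over the 7 tested ligands, 1 was called in the cRel-labelled libraries (6.09% of all genes), 1 in p50 (36.7%), 4 in p52 (50.8%) and 3 in RelA (5.55%), those of p50 and p52 being below or near the background. In the RelB-labelled libraries 6 were called (67.8% of all genes), of which 5 were higher, and the median difference was 1.28 against -0.0038 over all genes. These are calls by limma. On the recovered reads edgeR called 2 in RelA and 6 in the RelB-labelled libraries, and DESeq2 called 3 and 5. CCL19, the CCR7 ligand, was the gene called in the cRel-labelled libraries, from 5.30 ± 3.22 in the control to 32.5 ± 4.71 (log2 difference 2.55, adjusted p = 0.00041). It rose about as much in the p52 knockout (2.36, adjusted p = 7.8e-05) and the RelB-labelled libraries (2.10, adjusted p = 0.00015). It was named after its values were seen, being the single call in the cRel-labelled group.

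**Figure D4:**
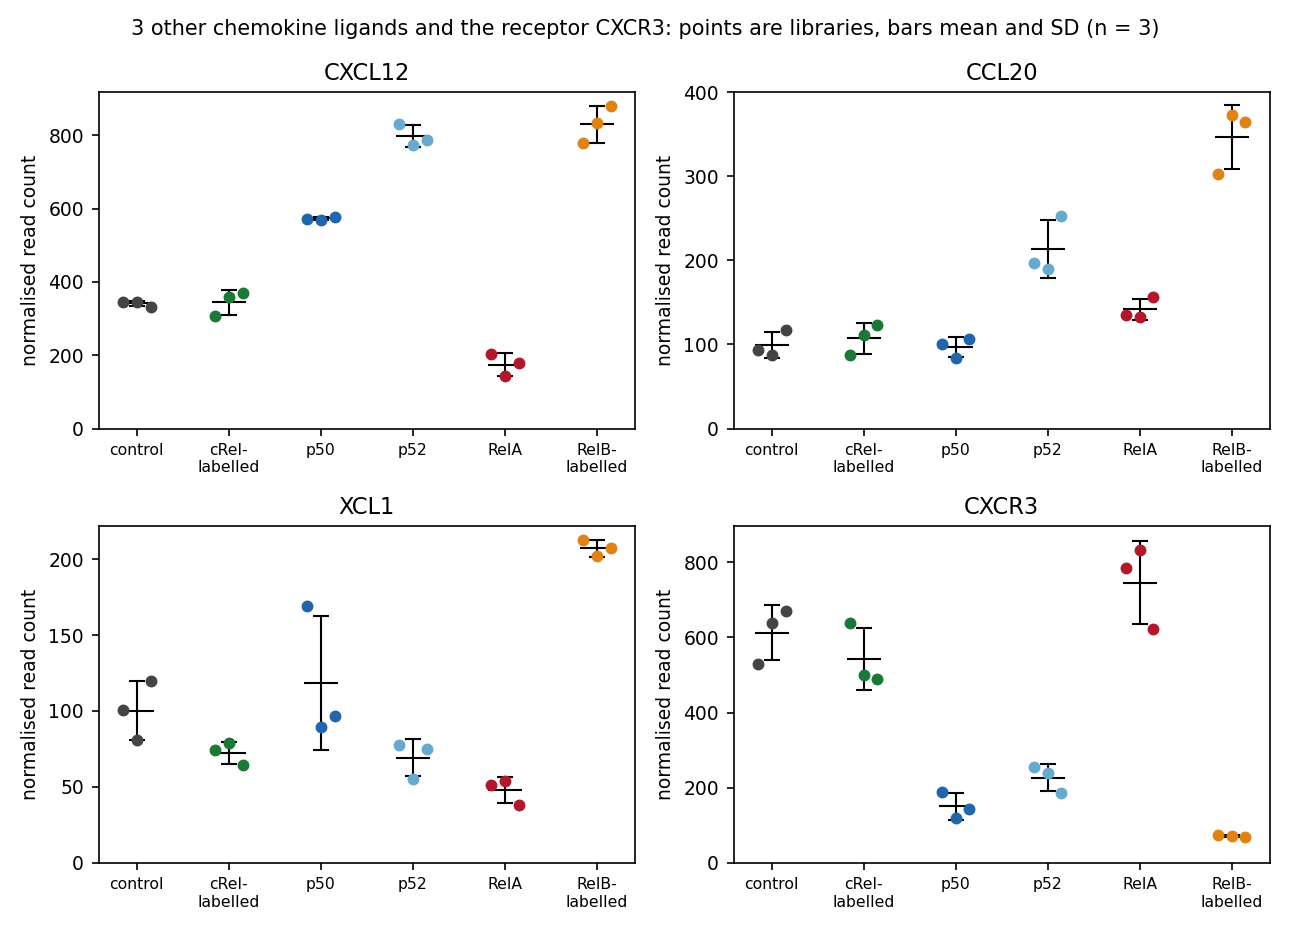
Normalised read count (vertical axis, starting at 0, scale differing between panels) of the ligands CXCL12, CCL20 and XCL1 and the receptor CXCR3 in the 6 groups (horizontal axis), with libraries as points and mean and SD of 3 as bars. The 3 ligands have their highest means in the RelB-labelled libraries, where CXCR3 has its lowest, and CXCL12 and XCL1 are lowest in the RelA knockout.

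CXCL9 and CXCL10 belong to the interferon-gamma response, and 13 of 16 other listed genes of that response were tested. Their median difference was 0.22 in the cRel-labelled, 0.26 in the RelB-labelled, 0.24 in the p52, -0.0036 in the RelA and -0.19 in the p50 libraries. Over all genes the medians lay between -0.02 and 0.0022. In the cRel-labelled libraries 6 were called, all of them higher, against 6.09% of all genes. They included GBP4 (1.15, adjusted p = 1.2e-08) and GBP1 (0.69, adjusted p = 9.8e-06), interferon-induced GTPases, and IRF1, a transcription factor of that response (0.32, adjusted p = 0.0025). In the RelA knockout, against 5.55% of all genes, 4 were higher, among them GBP4 (1.03, adjusted p = 3.1e-08), and 1 lower, the adhesion molecule ICAM1, which fell by 0.60 (adjusted p = 1.6e-05).

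In the p50 knockout, where CXCL10 fell, 2 of these 13 genes were higher and 5 lower, against 36.7% of all genes called. SOCS1, a feedback inhibitor of cytokine signalling, fell by 0.40 (adjusted p = 0.00064) and GBP1 by 0.52 (adjusted p = 5.9e-05). In the RelB-labelled libraries 8 of the 13 were called, all of them higher, a share near the 67.8% of all genes. GBP2 rose in them by 2.07 (adjusted p = 5.7e-11), GBP4 by 1.12 (adjusted p = 1.5e-10) and IRF1 by 0.49 (adjusted p = 5.4e-07), while CXCL10 fell by 1.19. In the p52 knockout 6 were higher and 1 lower, near the 50.8% of all genes. GBP4 rose there by 0.94 (adjusted p = 1.4e-08), and WARS, a tryptophanyl-tRNA synthetase induced by interferon, fell by 0.79 (adjusted p = 3.9e-08). With a rise of 0.26 in the p50 knockout (adjusted p = 0.019), GBP4 was called higher in every knockout group.

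On chromosome 16 the RefSeq order is RSPRY1, ARL2BP, PLLP, CCL22, CX3CL1, CCL17, CIAPIN1, COQ9 and POLR2C. In the cRel-labelled libraries none of the 6 genes flanking the chemokines was called by limma, edgeR or DESeq2, with 1 at an unadjusted p under 0.05 and differences from -0.15 to 0.25, against 6.09% of all genes called and beside -2.37 for CCL22. Of the same 6 genes, 5 were called in the RelB-labelled libraries (67.8% of all genes), in p52 4 (50.8%), and in p50 and RelA 1 each (36.7% and 5.55%). CX3CL1, which lies between both CCR4 ligands and encodes a membrane-bound chemokine, had a mean of 12.5 normalised read counts and was called in no knockout (adjusted p of 0.085 to 0.68). PLLP, next to CCL22 on the other side and picked after its values were seen, encodes plasmolipin. It rose in the RelB-labelled libraries (1.05, adjusted p = 2.4e-05), rose in p52 (0.81, adjusted p = 0.00078) and fell in RelA by 0.79 (adjusted p = 0.0091). Around CXCL9 and CXCL10 on chromosome 4, 5 flanking genes were tested. In the cRel-labelled libraries limma called 1 of them, lower, and edgeR none, against 6.09% of all genes, while both chemokines were higher. SDAD1, NUP54 and SCARB2 were lower in the p50, p52 and RelB-labelled groups (36.7%, 50.8% and 67.8% of all genes called), and CXCL10 fell in the first and last of these.

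The genes whose levels followed CCL22 most closely over the 18 libraries, out of 9846 genes with a mean of at least 100, were CD93 (Pearson r 0.947 on the log2 scale), P4HA2 (0.923), UBE2R2 (0.922), IL6R (0.914), ADA (0.902) and NKG7 (0.902). CD93, a cell-surface glycoprotein, averaged 249 in the control, 97.4 in the cRel-labelled libraries and 490.2 in the RelB-labelled ones. Unlike CCL22, it was not below the control in the RelA knockout, where its mean was 311, or in the p52 knockout, where it was 261. For CXCL10 the closest were ABCA6 (0.961), SMIM14 (0.949) and LIMA1 (0.947), for CXCL9 IL1R1 (0.889), F2R (0.876) and RB1 (0.873), and for CCL17 KHDRBS3 (0.860), DYRK3 (0.848) and CHST14 (0.844). SMIM14 averaged 964 in the control, 2313 in the cRel-labelled and 383 in the RelB-labelled libraries. These libraries share groups, depth and cell line, and the correlations are descriptions over genes picked for them.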

How the data were processed

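Normalised read counts per gene, a signal deposited by the authors as one table of 17155 genes and 18 libraries, were used as given. The submitters' processing notes name STAR 2.5.2b, featureCounts 1.5.1, DESeq2 1.14.1 and the build GRCh37. Annotation release, gene filter and strand setting of the counting were not given in the sources used here, and overlapping or antisense transcripts could not be separated. Low values were whole multiples of 1 step per library, and 100% of 308790 values came out as whole reads within 0.001.

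The main test was limma 3.58.1 (R 4.3.3) with an intensity trend on log2(value + 1), two-sided, in one fit of 18 libraries with a mean per group. It covered 12381 genes whose mean reached 10, with Benjamini-Hochberg adjustment within each contrast and calls at an adjusted p under 0.05. Folds come from this scale, where the added 1 draws differences at low values toward 0, and are not ratios of group means. As alternatives, edgeR 4.0.16 (quasi-likelihood) and DESeq2 1.42.0 were run on the recovered reads, and the scripts were tested on simulated data. On the recovered reads edgeR called 814, 4588, 6381, 671 and 8414 genes in the cRel-labelled, p50, p52, RelA and RelB-labelled comparisons, where limma called 754, 4539, 6295, 687 and 8391. Other settings were pseudocounts of 0.5 and 5, no minimum and a mean of at least 100, TMM and quantile normalisation, a replicate block, fits of only the 2 groups compared and leaving out each library. Leaving out the 3 libraries that deviated with transcript length was chosen after seeing the data. Replicate numbers were not used as pairs, since the 3 correlations with same-numbered controls all passed 0.1 in 0 of 5 knockouts, though in 16 of 18 libraries the best correlation was with 1 of the same number.

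Members and gene lists were chosen with earlier results of these data known. Named were the members, the 5 subunit genes, receptors of the members, up to 3 called genes per knockout and list with a mean of at least 100 and the smallest p, and the genes most correlated with a member (6 for CCL22, 3 for the others). A few genes that this rule covers are not reported here. Exon lengths came from GENCODE 29, and gene order and promoter windows from RefSeq on GRCh38.p14, used for names, order and sequences only. The floor of 3 reads covers counting error only, and the 95% intervals of differences come from the fit and cover the spread between libraries.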

Additional observations from a re-analysis of the deposited data

How the results depend on the processing

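Over all settings no called difference of a measured ligand changed its direction, while some uncalled differences of CCL17 and CXCL9 close to 0 changed sign. With only genes of a mean of at least 100 tested, CCL17 and CXCL9 were left out, and the number of ligands called went from 2 to 1 in the cRel-labelled, p52 and RelA comparisons. Quantile normalisation left 1 in p52, where the call of CCL22 was lost; the cause was not tested. Leaving out 1 library at a time gave 2 to 2 called ligands for cRel-labelled, 0 to 1 for p50, 2 to 2 for p52, 2 to 3 for RelA and 2 to 3 for RelB-labelled libraries, and 5 to 8 called pairs of neighbouring groups. The p50 count was 0 without control 3, without p50 library 1 or without p50 library 2. Without the 3 libraries that deviated with transcript length, 5 pairs of neighbouring groups were called in place of 6. The CCL22 difference in p50 moved from -0.91 to -0.838 without control 1. Among tested values of single ligands, 437 kept their side of the threshold, 14 passed it anew and 9 no longer passed it. Of the untested CCL22 values in cRel-labelled and p50 libraries, 33 moved by less than the spread and the 1 just given moved by more. With a replicate block, CXCL10 passed in RelA (adjusted p = 0.012), between p52 and p50 (0.041) and between cRel-labelled and RelA libraries (0.05), and the block removed no call; in 16 of 18 libraries the best correlation was with 1 of the same number, a hint from the data and not from the design. The fewest reads were on CCL17, CXCL9 and CXCL16, which had at most 65, 70 and 15 reads in any library.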

Other observations

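Secreted chemokines are trimmed or modified after translation, and 7 of 8 listed genes of that machinery were tested. DPP4, a membrane peptidase that shortens CCL22, CXCL9 and CXCL10, rose in the cRel-labelled libraries (log2 difference 0.60, adjusted p = 0.0011 by limma), the RelA knockout (0.57, adjusted p = 0.0021), the RelB-labelled libraries (0.57, adjusted p = 9.3e-05) and the p52 knockout (0.41, adjusted p = 0.0031). FURIN, a proprotein convertase, rose in the RelB-labelled libraries (0.78, adjusted p = 4.9e-10), p52 (0.30, adjusted p = 0.00044) and p50 (0.23, adjusted p = 0.0078). MMP9, a metalloproteinase that can degrade chemokines and was picked after its values were seen (mean 24.0 over all libraries), rose in the cRel-labelled libraries (1.39, adjusted p = 0.00041), p52 (1.29, adjusted p = 7.3e-05) and RelB-labelled libraries (0.60, adjusted p = 0.025). TPST2, which sulfates tyrosines of chemokine receptors, fell by 0.31 in RelA and by 0.29 in the RelB-labelled libraries. In all, 2 of the 7 were called in the cRel-labelled comparison (6.09% of all genes called), 1 in the p50 (36.7%), 4 in the p52 (50.8%), 2 in the RelA (5.55%) and 5 in the RelB-labelled comparison (67.8%), the p52 and RelB-labelled counts being near the background. Protein and secretion were not measured.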
